A study of Mus musculus with 4 samples.

Results

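The genes of the Myc network were described by their accessible chromatin in G1ER mouse erythroblasts, measured by ATAC-seq, an assay that tags open DNA with a transposase. The members were Myc, Mycn, Mycl, Max, Mxd1, Mxd3, Mxd4, Mxi1, Mnt and Mlx. A region of open chromatin (peaks of the 4 deposited lists merged where they overlapped or touched) belonged to a member if it lay inside the gene. It also belonged if an end of that gene was the nearest protein-coding gene end within 100 kb. For Myc, regions on chromosome 15 up to 2 Mb downstream of the gene were listed as well. This gave 22 regions of 15328, of which 13 were linked to a member and 10 lay downstream of Myc, with 1 region in both sets. Positions are on GRCm38.

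The study compared CHD7-knockout G1ER cells (2 libraries, labelled CHD7-KO) with wild-type G1ER cells (2 libraries, labelled WT). CHD7 is a chromodomain helicase that moves nucleosomes. All cells were grown in erythropoietin and stem cell factor with no treatment, and 50000 cells went into each library. The replicate 1 libraries carry a time of 1 h and the replicate 2 libraries one of 2 h, which matches the range of transposase reaction times in the labels' protocols. G1ER cells, knockout and wild-type alike, lack endogenous Gata1 and express a fusion of GATA1 with part of the estrogen receptor. Both knockout libraries bear the same code in their descriptions, so genotype and line cannot be told apart. The labels do not name separate cultures, and p-values therefore measure a spread that may be technical only.

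Myc is a transcription factor that pairs with Max and binds the E-box CACGTG, mostly to activate genes of growth and ribosome production. Mycn and Mycl are its paralogs. Mxd1, Mxd3, Mxd4, Mxi1 and Mnt also pair with Max on E-boxes but recruit SIN3 corepressors, and Mlx is an alternative partner for some of these repressors. In erythroid cells Myc sustains division and declines with maturation, and in blood cells Myc depends on enhancers far downstream of the gene.

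The 4 libraries gave 12443 and 11376 nuclear peaks in knockout cells, and 11084 and 12043 in wild-type cells. Read depth is unknown. The lowest local background of a library, a stand-in for relative depth, was 1.04 and 1.01 in knockout libraries, against 0.787 and 1.08 in wild-type libraries. By that measure wild-type replicate 1 was the lowest. Of 12 erythroid marker genes, 10 had a linked region, Hba-a1 and Slc4a1 being without one. Of the 12, 8 had a region called in all 4 libraries, while Hbb-bt had one in 1 library only, with 10 fragments. Markers of T cells (0 of 5), B cells (0 of 5), granulocytes and macrophages (0 of 6) and hepatocytes (0 of 3) had none, and 1 of 5 fibroblast and epithelial markers had a region, in 1 library. The labels' deletion of Chd7 could not be checked from these peak positions.

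The sequences of 4 member promoters are shown because they hold the E-box that the network's own proteins bind. RefSeq (GRCm38.p6) gave promoter windows, from 250 bases before to 50 after the start, for 9 of the 10 members, Myc having no entry. CACGTG, which reads the same on both strands, occurred in the windows of Max, Mlx, Mnt and Mxd4, once each. Stretches of these windows follow, 5′ to 3′ on the gene's strand, with the E-box in capitals. They lie at chr12:76962219-76962338 (minus strand, Max), chr11:101087193-101087312 (plus strand, Mlx), chr11:74830744-74830863 (plus strand, Mnt) and chr5:34187867-34187960 (minus strand, Mxd4).
Max: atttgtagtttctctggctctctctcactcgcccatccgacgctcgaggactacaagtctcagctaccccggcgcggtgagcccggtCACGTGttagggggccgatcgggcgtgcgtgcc
Mlx: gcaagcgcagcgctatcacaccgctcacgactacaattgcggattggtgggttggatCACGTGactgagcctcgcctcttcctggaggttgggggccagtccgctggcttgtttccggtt
Mnt: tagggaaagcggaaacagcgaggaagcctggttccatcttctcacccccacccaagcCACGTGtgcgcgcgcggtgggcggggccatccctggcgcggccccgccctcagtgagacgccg
Mxd4: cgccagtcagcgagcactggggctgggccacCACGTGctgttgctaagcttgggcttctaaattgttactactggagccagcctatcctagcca

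The first base of the E-box stood 3 bases before the start in Max, so that the motif spans the start. It stood 40 bases before it in Mlx, 123 in Mnt and 219 in Mxd4. Thus 4 of 9 member genes carried the motif, against 8.09% of all genes with a window. By windows the figures were 4 of 11 for members and 7.15% of all 32851, or 11.9% of the windows open in all 4 libraries. The member windows were also rich in G and C, with a median of 64.0% against 52.7% for all windows. The GATA letters AGATAA and TGATAA and the RUNX letters TGTGGT, searched on both strands, occurred in 0 of 11 member windows, against 11.2%, 9.05% and 16.8% of all windows. Among the windows open in all 4 libraries these shares were lower, 4.77%, 3.22% and 11.1%. TGCGGT, the other RUNX spelling, occurred in the Max window and in the first Mxi1 window, 2 of 11, against 6.45% of all windows. Of the windows open in all 4 libraries, 10.9% held it. A match to letters is a description of the sequence and not of binding.

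Most repressor genes of the network and Max had open promoters in both genotypes, whereas Mycn, Mycl and Mlx had none. Of the 9 members with a window, 6 (Max, Mnt, Mxd1, Mxd3, Mxd4 and Mxi1) were open in all 4 libraries, against 23.9% of all genes with a window. With 1 kb either side of a gene end in place of these windows the count was again 6, with Myc in and Mxi1 out. In all, 7 of 10 members had a linked region, against 46.5% of 21887 protein-coding genes.

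Knockout libraries held 10 and 12 of the 13 linked regions and wild-type libraries 10 and 11, a mean of 11 ± 1.41 against 10.5 ± 0.707 (SD, n = 2 each). The difference of 0.5 gave p = 1 in a two-sided exact permutation test, which cannot go below 0.33 with 2 libraries against 2. Of the 13 regions 10 were called in all 4 lists, which is 76.9%, against 56.8% of all regions. Their median width was 632 bp, against 478 bp for all regions. Called in both knockout lists and neither wild-type list were 0 of 13, where 2.71% of all regions had that pattern. Called in both wild-type lists and neither knockout list were also 0 of 13, against 2.25% of all regions.

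The remaining 3 linked regions were each called in 1 library and were weak. A region 89.2 kb from the end of Myc (chr15:62079462-62079661, inside Pvt1) had 8 fragments piled up at its summit in knockout replicate 2. A region 7.11 kb from Mxd1 (chr6:86639828-86640043) had 14 fragments, again in knockout replicate 2. The third, inside Max (chr12:76941616-76941815), had 13 fragments in wild-type replicate 2.

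**Figure D1:**
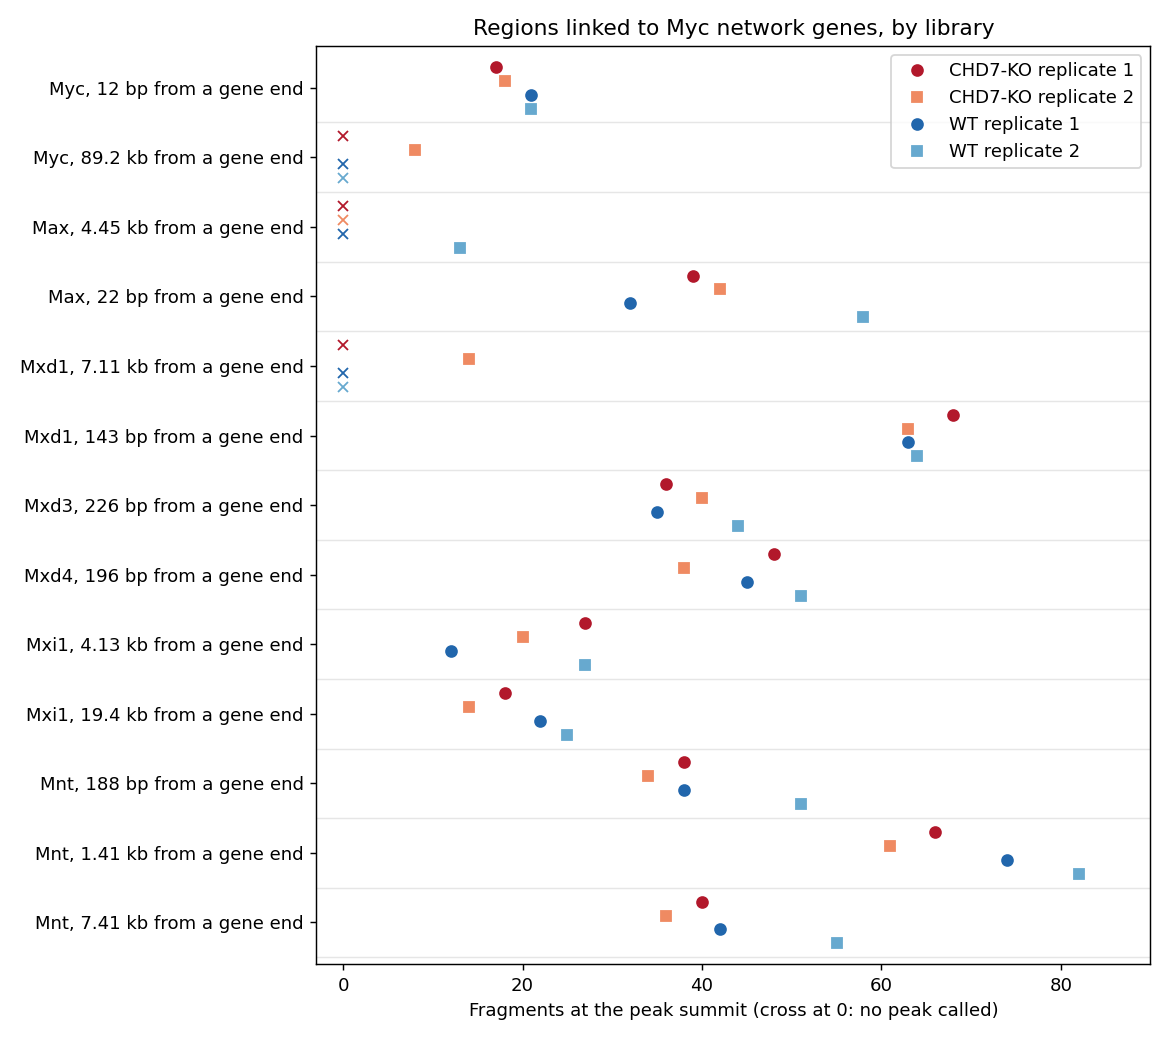
Fragments at the peak summit (x axis, number of fragments) for the 13 regions linked to Myc network genes, 1 row per region, with 1 point per library and a cross at 0 where no peak was called. The 2 knockout libraries are in reds and the 2 wild-type libraries in blues, and the start region of Mxd1 and the second region of Mnt reach above 60 in every library.

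Levels were compared as the fragment pileup at the summit, recovered from the authors' deposited fold enrichment and p-value of each peak. For the test, log2(pileup + 1) was centred on each library's median over 8704 regions. These are the 8705 regions with a peak in every library less 1 whose pileup could not be solved in each of them. limma with Benjamini-Hochberg adjustment was fitted over all of them, and 0 of the 8704 regions passed an adjusted p of 0.05, 0%. With the replicate number, and so the labelled time, as a block, 2 regions passed, neither of them linked to a member or downstream of Myc. At an unadjusted p of 0.05, 758 regions passed, 8.71%. A log2 difference below is knockout minus wild type on the centred scale, with its SE.

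Myc itself had 1 modest open region at its start. The region chr15:61985051-61985654 lies over the gene's end at 61985341 (Myc, gene ID 17869, chr15:61985341-61990361). It had 17 and 18 fragments in knockout libraries, against 21 and 21 in wild-type libraries. Before scaling both knockout libraries were lower, as in 18.8% of all regions tested. After centring the genotypes overlapped, with a log2 difference of -0.17 ± 0.20 (limma adjusted p = 0.879). The deposited fold enrichment was 5.36 and 5.86 in knockout lists, against 7.33 and 6.25 in wild-type lists. The peak was narrower in knockout lists, 449 and 224 bp, against 518 and 589 bp in wild-type lists. The share of all regions with such a pattern of widths was not counted, so this difference has no background beside it. Its mean percentile of fold enrichment within the 4 lists was 28.6, below the strongest region of each other member that had one (43.3 at Mxi1 to 94.7 at Mxd1).

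Mycn and Mycl, the paralogs, had no linked region in any library. The region nearest to Mycn (chr12:12936093-12941836) lay 239 kb away, and its nearest protein-coding gene end belonged to Ddx1. The region nearest to Mycl (chr4:122995588-123002490) lay 14.2 kb away (chr4:123016376-123016946), and its nearest protein-coding gene end belonged to Trit1. That region had 18 and 15 fragments in knockout libraries, against 21 and 22 in wild-type libraries. Absence from the lists means that no peak passed the authors' caller at this depth.

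Max, the common partner, was open at its start (chr12:76961964-76962639). It had 39 and 42 fragments in knockout libraries, against 32 and 58 in wild-type libraries. The wild-type values enclosed the knockout values, and the log2 difference was -0.01 ± 0.24 (limma adjusted p = 0.994). Mlx, the alternative partner (chr11:101086707-101092207), had no region of its own although its window holds an E-box. The nearest region lay 3.35 kb from Mlx (chr11:101095293-101095826), and its nearest protein-coding gene end belonged to Psmc3ip. That region had 13 and 14 fragments in knockout libraries, against 12 and 23 in wild-type libraries.

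Among the repressors, Mxd1 had the strongest region by fold enrichment, over its start (chr6:86669029-86669725). It had 68 and 63 fragments in knockout libraries, against 63 and 64 in wild-type libraries. All 4 values lay close together, with a mean percentile of 94.7 and a log2 difference of 0.12 ± 0.19 (limma adjusted p = 0.909). Mxd4, at chr5:34187587-34188226, had 48 and 38 fragments in knockout libraries, against 45 and 51 in wild-type libraries. The Mxd4 ranges overlapped, with a log2 difference of -0.08 ± 0.18 (limma adjusted p = 0.945). Mxd3, a relative of the other Mxd genes whose protein is found in dividing cells, had 36 and 40 fragments in knockout libraries, against 35 and 44 in wild-type libraries, at chr13:55329661-55330590. Here too the genotypes overlapped, with a log2 difference of 0.03 ± 0.20 (limma adjusted p = 0.977).

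Mxi1, a Mxd relative that antagonises Myc, had 2 regions and neither lay at its first RefSeq start (position 53310506). The region over 2 internal starts (chr19:53329216-53329791) had 18 and 14 fragments in knockout libraries, against 22 and 25 in wild-type libraries. Both knockout values were below both wild-type values, with a log2 difference of -0.45 ± 0.18 that did not pass the adjusted test (limma adjusted p = 0.532). The intragenic region 4.13 kb from the gene end (chr19:53314050-53314468) had 27 and 20 fragments in knockout libraries, against 12 and 27 in wild-type libraries. Wild-type replicate 1 alone was low there, and the log2 difference of 0.43 ± 0.28 (limma adjusted p = 0.731) became -0.019 without that library.

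Mnt, the repressor found in both resting and dividing cells, had 3 regions, all called in every library. Of all protein-coding genes, 5.64% had 3 or more. The first, over the start (chr11:74830253-74830982), had 38 and 34 fragments in knockout libraries, against 38 and 51 in wild-type libraries. Its mean percentile of fold enrichment was 15.9. The second, 1.41 kb from the gene end (chr11:74831896-74832527), had 66 and 61 fragments in knockout libraries, against 74 and 82 in wild-type libraries. The third, 7.41 kb inside (chr11:74837594-74838834), was 1241 bp wide, and it had 40 and 36 fragments in knockout libraries, against 42 and 55 in wild-type libraries.
After centring, both knockout libraries lay below both wild-type libraries in all 3 Mnt regions. The log2 differences were -0.20 ± 0.19, -0.21 ± 0.18 and -0.25 ± 0.18, and none passed (limma adjusted p = 0.823, 0.812 and 0.774). The local background moved with them at the first 2 regions. At the first it was 6.14 and 6.06 in knockout libraries, against 7.04 and 7.86 in wild-type libraries. On the deposited fold enrichment, which divides by that background, the first 2 differences were 0.034 and 0.033, so their direction depends on the scale.

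After centring, knockout libraries were below wild-type libraries without overlap in 4 of the 10 member regions tested (Mxi1 at its internal starts and the 3 Mnt regions). Of all regions 17.3%, and of regions within 1 kb of a gene end 18.8%, had that pattern. Knockout libraries were above without overlap in 0 of 10, against 21.4% of all regions and 18.3% of those within 1 kb of a gene end. At an unadjusted p of 0.05, 0 of the 10 were higher, where 5.03% of all regions were, and 1 was lower (Mxi1 at its internal starts), where 3.68% were. The median log2 difference was -0.13, against 0.02 over all regions tested, and 3 of the 4 regions without overlap belong to 1 gene. With centring on the lowest background, which moves the median of all regions to -0.21, 7 member regions were below, against 41.4% of all regions. By fold enrichment 2 were below, against 16.7% of all regions, and 1, the second Mnt region, was above, against 20.4%.

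The summit of the Mnt start region, weak by fold enrichment (mean percentile 15.9, against 28.6 at the Myc start), differed in position between genotypes. It lay 477 and 458 bases before the start in knockout libraries, against 97 and 104 bases before it in wild-type libraries. The genotypes were separated by 354 bp, whereas the 2 knockout summits lay 19 bp apart and the 2 wild-type summits 7 bp apart. The middle of the E-box printed above was 356.5 and 337.5 bases from the knockout summits, against 23.5 and 16.5 bases from the wild-type summits. Summits at least 300 bp apart were seen in 27 of 8705 regions, 0.31%, and at least 100 bp apart in 178, 2.04%, both thresholds being chosen after this gap was seen. The median width of all regions was 478 bp, and these shares were not counted among regions of like width. In this 730 bp region a summit is only the highest point of the pileup, and the heights of other points were not available.
At the Myc start the summits were 67 bp apart between genotypes, less than the 184 bp between the 2 knockout summits, and the 2 wild-type summits lay 3 bp apart. At Max they were 117 and 189 bases before the start in knockout libraries, against 37 and 117 in wild-type libraries. At Mxd3 they were 351 and 353 bases before it in knockout libraries, against 329 and 343 in wild-type libraries, a gap of 8 bp. At Mxd4 they were 173 and 145 bases before the start in knockout libraries, against 288 and 143 in wild-type libraries.

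**Figure D2:**
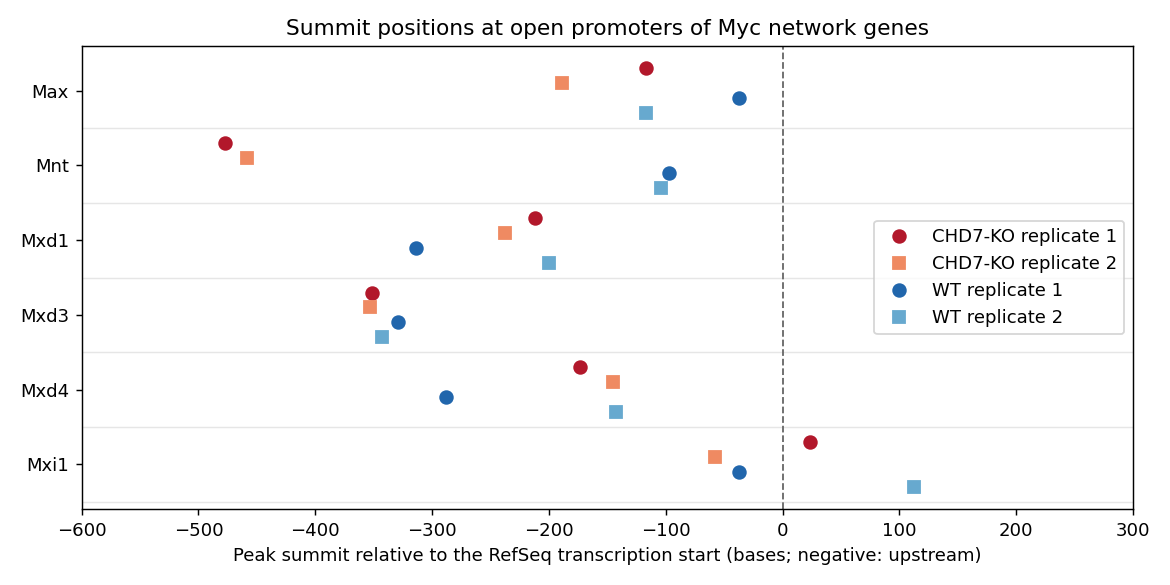
Position of the peak summit relative to the RefSeq start (x axis, bases, negative before the start) for the member promoters open in all 4 libraries, 1 point per library (2 reds for knockout, 2 blues for wild type; for Mxi1 the internal start at 53329413). At Mnt the 2 knockout summits lie 477 and 458 bases before the start and the 2 wild-type summits 97 and 104 bases before it.

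Downstream of Myc the open regions fell into a near and a far set. Of the 10 regions in the 2 Mb window, 4 lay inside Pvt1 (chr15:62037986-62260215), a long non-coding gene beside Myc, and 1 more lay 338 kb from Myc. Then 1264 kb followed without a peak in any library. The other 5 lay between 1.60 and 1.75 Mb from Myc, within 144 kb (chr15:63592835-63736778). As background, an enhancer cluster active in blood stem and progenitor cells is known far downstream of Myc. Whether these 5 regions are that cluster was not tested.

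Knockout libraries held 9 and 7 of the 10 downstream regions, against 4 and 8 in wild-type libraries. The means were 8 ± 1.41 and 6 ± 2.83 (SD, n = 2 each), a difference of 2 (two-sided exact permutation p = 0.667). Wild-type replicate 1, with the lowest background of the 4 libraries, held the 4, and without it the difference was 0. The part of depth in this was not tested. None of the 10 was called in both lists of 1 genotype and neither list of the other.

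The 4 regions called in every library had higher pileups in knockout cells. The Pvt1 region 169 kb from Myc (chr15:62158787-62159341) was the strongest, with 39 and 32 fragments in knockout libraries, against 20 and 30 in wild-type libraries. The Pvt1 region 233 kb from Myc (chr15:62223160-62223708) had 24 and 22 fragments in knockout libraries, against 12 and 14 in wild-type libraries. In both regions the 2 knockout values stood above the 2 wild-type values.
In the far set, the region at 1.60 Mb (chr15:63592835-63593413) had 19 and 20 fragments in knockout libraries, against 14 and 16 in wild-type libraries. The region at 1.75 Mb (chr15:63736346-63736778) had 15 and 18 fragments in knockout libraries, against 12 and 12 in wild-type libraries. Again neither region had overlapping genotypes.

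In the order of distance the log2 differences were 0.59 ± 0.20, 0.86 ± 0.18, 0.44 ± 0.19 and 0.50 ± 0.21. The difference at 233 kb, a 1.82-fold higher pileup plus 1, had the smallest p of the 14 regions tested (limma unadjusted p = 8.7e-04). All 4 had an unadjusted p under 0.05, against 5.03% of all regions in that direction. None passed after adjustment over all regions (limma adjusted p = 0.431, 0.292, 0.544 and 0.534). The median of the 4 was 0.55, against 0.02 over all regions tested, 0.12 over the 299 tested regions more than 100 kb from a gene end and 0.04 over the 334 on chromosome 15. Knockout libraries were above wild-type libraries without overlap in 4 of 4, where 35.5% of regions over 100 kb from a gene end (a class that holds 3 of the 4, the region at 1.75 Mb lying 39.4 kb from an end of Gsdmc), 26.6% of those on chromosome 15 and 21.4% of all regions had that pattern. Regions that lie on 1 stretch of chromosome are not independent of each other.
The local background moved with the pileup, without overlap between genotypes at 3 of the 4 regions and with overlap at 169 kb. At 169 kb it was 2.46 and 2.02 in knockout libraries, against 1.26 and 2.04 in wild-type libraries. At 233 kb it was 3.0 and 2.56 in knockout libraries, against 1.52 and 2.34 in wild-type libraries. At 1.60 Mb it was 1.24 and 1.40 in knockout libraries, against 1.0 and 1.1 in wild-type libraries. At 1.75 Mb it was 1.28 and 1.24 in knockout libraries, against 0.90 and 1.1 in wild-type libraries. By fold enrichment, which divides by it, all 4 stayed without overlap, with smaller log2 differences of 0.28, 0.47, 0.25 and 0.32. With centring on the lowest background 3 of the 4 were above without overlap, where 4.73% of all regions were above and 41.4% below. The part of the background in these differences was not tested further.

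**Figure D3:**
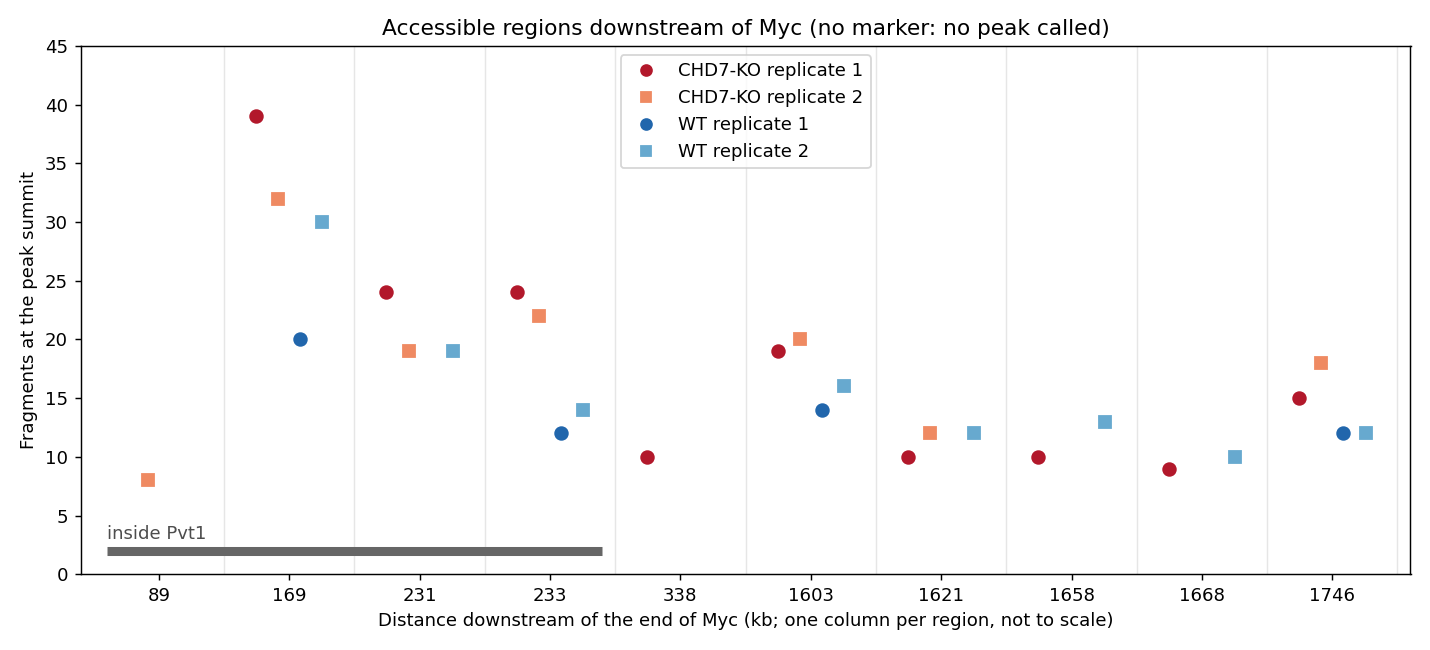
Fragments at the peak summit (y axis, number of fragments) for the 10 regions downstream of Myc, in order of distance from the gene (x axis, kb, 1 column per region), with 1 point per library and no point where no peak was called. In the 4 columns with all 4 libraries, at 169, 233, 1603 and 1746 kb, both knockout points stand above both wild-type points.

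The other 6 downstream regions were missing from at least 1 list. At 231 kb (chr15:62220980-62221430) the pileup was 24 and 19 fragments in knockout libraries, against 19 in wild-type replicate 2. At chr15:62328627-62328831 knockout replicate 1 alone had a peak, with 10 fragments. At chr15:63611099-63611450 there were 10 and 12 fragments in knockout libraries, against 12 in wild-type replicate 2. The regions at chr15:63648276-63648627 and chr15:63658012-63658678 were called in replicate 1 of the knockout (10 and 9 fragments) and replicate 2 of the wild type (13 and 10 fragments). The sixth is the Pvt1 region at 89.2 kb described above. None of these 6 was called in wild-type replicate 1.

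The balance between the Myc start and its downstream regions can be given within each library, which needs no scaling between libraries. The summed pileup of the 4 shared downstream regions was 5.71 and 5.11 times that of the Myc start in knockout libraries, against 2.76 and 3.43 times in wild-type libraries. The means were 5.41 ± 0.421 and 3.10 ± 0.471 (SD, n = 2 each). From deposited fold enrichments the ratios were 6.30 and 5.90 in knockout lists, against 3.93 and 4.64 in wild-type lists. This ratio was chosen after the values were seen, with all 4 regions higher and the start lower in knockout pileups, so its direction follows from them and no test was run on it.

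**Figure D4:**
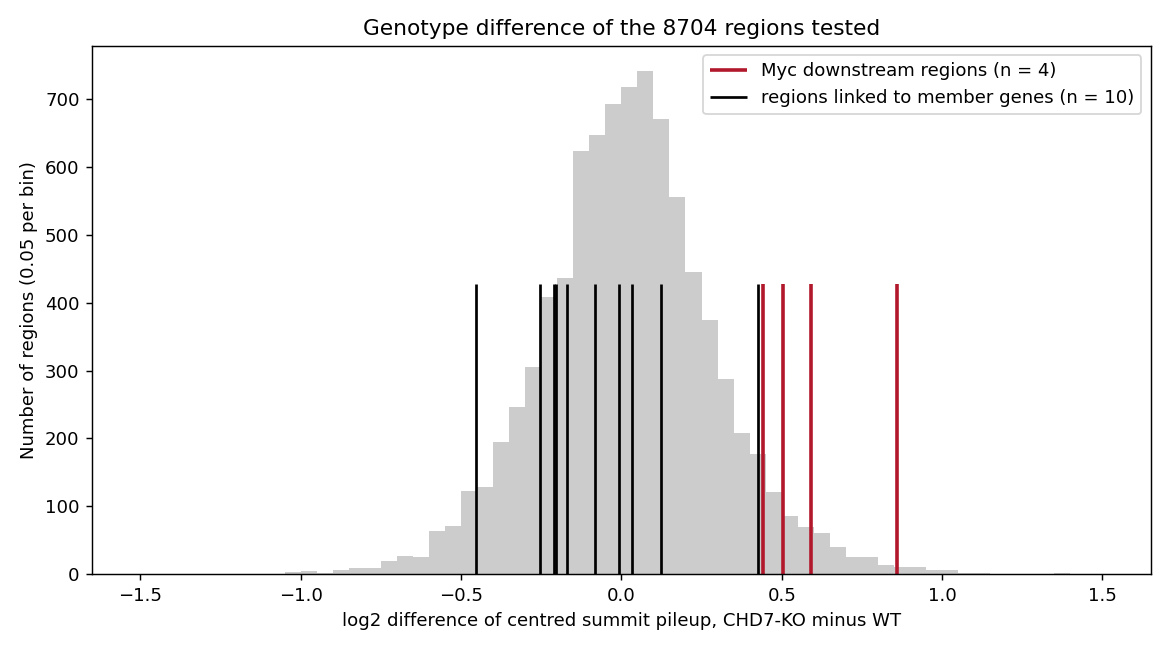
Histogram of the log2 difference in centred summit pileup (x axis, knockout minus wild type) over the 8704 regions tested (y axis, number of regions per bin), with red lines for the 4 regions downstream of Myc and black lines for the 10 regions linked to members; line height carries no value. The 4 downstream regions of Myc lie between 0.44 and 0.86, and the 10 regions linked to members lie between -0.45 and 0.43.

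Genes around the network were followed in 3 further groups. Of 14 partners and cofactors (Mga, Mlxip, SIN3 and NuA4 subunits and others), 13 had a region, Mlxipl being without one. After centring, knockout libraries were above wild-type libraries without overlap in 4 of 14 regions tested (Mlxip, Sin3a, Sin3b and Wdr5) and below in 0. Of all regions, 21.4% were above and 17.3% below in that way. In fragments before centring, the genotypes overlapped at Mlxip, Sin3a and Sin3b. The median log2 difference of the 14 regions was 0.08. The strongest were at Ep400, Wdr5, Ruvbl2 and Mlxip. Ep400, the motor of a histone exchange complex, had 77 and 66 fragments in knockout libraries, against 67 and 81 in wild-type libraries. Wdr5 is a scaffold of histone methyltransferases that binds Myc. Its region 3.71 kb from a gene end had 40 and 41 fragments in knockout libraries, against 35 and 35 in wild-type libraries (log2 difference 0.29 ± 0.19, limma adjusted p = 0.738). The Wdr5 region 0.0425 kb from a gene end had 16 and 18 fragments in knockout libraries, against 18 and 24 in wild-type libraries.

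Of 8 genes that control Myc protein stability, 7 had a region, Cip2a being without one. After centring, knockout libraries were above without overlap in 2 of 7 regions tested (Usp28 and Gsk3b) and below in 1 (Fbxw7). Of all regions, the same 21.4% were above and 17.3% below. The median log2 difference of the 7 regions was 0.02. Usp28, a deubiquitinase that stabilises Myc, had 100 and 87 fragments in knockout libraries, against 76 and 84 in wild-type libraries (log2 difference 0.30 ± 0.18, limma adjusted p = 0.691). Fbxw7, the ubiquitin ligase subunit that targets Myc, had 56 and 51 fragments in knockout libraries, against 59 and 71 in wild-type libraries (log2 difference -0.19 ± 0.18, limma adjusted p = 0.834). Usp36, the nucleolar deubiquitinase of Myc, was the strongest of the group, with 64 and 75 fragments in knockout libraries, against 60 and 78 in wild-type libraries.

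Of 18 well-known Myc targets, 17 had a region, Tert being without one. After centring, knockout libraries were above without overlap in 3 of 16 regions tested (Cdk4, Srm and Hspd1) and below in 4 (Nop56, Nme1, Tfrc and Cdkn1a). Of all regions, 21.4% were above and 17.3% below in that way. In fragments before centring, the genotypes overlapped at Cdk4, Srm and Hspd1, and at Tfrc they shared a value of 32. The median log2 difference of the 16 regions was 0.00. Ncl, nucleolin, was the strongest, with 76 and 73 fragments in knockout libraries, against 71 and 89 in wild-type libraries. Of these, 2 had an unadjusted p under 0.05, where 8.71% of all regions had, and are named after their values were seen. Nop56, a box C/D ribonucleoprotein, had 17 and 10 fragments in knockout libraries, against 29 and 20 in wild-type libraries (log2 difference -0.75 ± 0.28, limma adjusted p = 0.480). Nme1, a nucleoside diphosphate kinase, had 23 and 18 fragments in knockout libraries, against 29 and 33 in wild-type libraries (log2 difference -0.50 ± 0.18, limma adjusted p = 0.484). Across these 3 groups 0 regions passed the adjusted test, and 0 were called in both lists of 1 genotype and neither list of the other.

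By the number of linked regions called per library (1 and 2 in knockout, 1 and 1 in wild-type libraries) and then by strength, the genes most like Myc were Kdm7a, Rbl1 and Erf. In all, 171 genes had that same set of counts, so the likeness is a weak one.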

How the data were processed

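ATAC-seq was measured in 2 CHD7-knockout and 2 wild-type G1ER libraries, grouped and numbered by the sample titles. The submitters' processing notes name Bowtie2 2.2.1 and MACS2 2.1.0, without role or order, and several genome builds. Peak names in the deposited lists give GRCm38 and one list per library. What threshold, control, read shift or duplicate removal was used is not given in the sources used here. The deposited lists hold a whole-number score, the fold enrichment (a ratio of pileup to local background), and the −log10 p and −log10 q values of each peak, all by the authors' caller. The lowest −log10 q was 1.32 and 1.34 in knockout lists and 1.35 and 1.42 in wild-type lists.

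The whole-number summit pileup was solved from the Poisson p-value together with the fold enrichment, (pileup + 1) / (background + 1), within 0.001 in −log10 p. This recovered 99.99% of peaks in each library. Pileups are comparable between libraries only if the caller left them unscaled. The 2 mitochondrial peaks of each library were left out. Merged regions were linked to genes of the GRCm38.p6 RefSeq table, which gives ends and no exons. Pileups were compared with limma 3.58.1 (R 4.3.3), with a pseudocount of 1 and trend off, and counts per library by exact permutation. Replicate numbers pair the libraries by the labelled time (1 h and 2 h). Deviations of same-numbered libraries from their group means had a correlation of 0.0022 over regions. The fit without this block is the one reported. Python 3.11.15 did the rest. The steps were tested on simulated data, with a spread between libraries that was set and not taken from these data. In that simulation the fit called 21 of 100 regions with a 2-fold change. It called 96 of 100 with a 4-fold change. Counts of fragments give no depth of sequencing, and statements rest on 2 libraries per genotype.

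The members, gene lists and the alternatives were chosen with earlier results of these data known. All members are named. Their strongest and promoter regions, the strongest downstream regions and up to 4 genes per list are given in full. From the planned lists, 2 genes were left out of all counts and are not reported here. The downstream ratio, the summit thresholds and the counts without overlap under other scalings were added after the values were seen.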

Additional observations from a re-analysis of the deposited data

Results flagged for a closer look

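Some effects took opposite directions in the 1 h and 2 h libraries, each given as knockout minus wild type in centred log2 pileup from 1 library per genotype. Labelled time and replicate number coincide, so time cannot be told apart from scatter between replicates. These differences were not tested. At the Myc start the value was -0.40 at 1 h and 0.062 at 2 h. At the Max start it was 0.17 at 1 h and -0.18 at 2 h. At Mxd1 it was -0.0025 at 1 h and 0.25 at 2 h. The sign at 1 h rests on the centring there, the fragments being 68 in the knockout library and 63 in the wild-type library. At Mxd3 the value was -0.072 at 1 h and 0.14 at 2 h. At the intragenic Mxi1 region it was 1.00 at 1 h and -0.14 at 2 h. The number of Myc downstream regions called differed by 5 at 1 h and by -1 at 2 h.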

How the results depend on the processing

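Under the 14 settings of the limma fit run, 0 member or downstream regions passed, with 12 in place of 14 tested at a −log10 q of at least 5. Over all regions, 70 passed with centring on the lowest background, 17 with limma's trend and 2 with the replicate block, against 0 as reported. In this balanced design a block cannot move a difference of group means. The differences in regions called, 0.5 for members and 2 downstream, were therefore fixed under it. The block changed no call of a region described here. Links within 50 kb gave a difference of 0 in member regions called. A −log10 q of at least 5 gave 0.5 for downstream regions. Leaving out each library gave -0.5 to 1.5 member regions and 0 to 4 downstream regions. The count called in both knockout lists alone ranged over 0 to 2, reaching 2 without knockout replicate 1, and that in wild-type lists alone over 0 to 1, reaching 1 without wild-type replicate 1. Fewer libraries need to agree in those counts.

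Some differences changed sign, and the cause was not tested. Mxd3 was -0.047 with no centring and -0.20 with centring on the lowest background, where Mxd1 was -0.11. Max was 0.0088 at the stricter −log10 q. The first and second Mnt regions were 0.034 and 0.033 by fold enrichment. Leaving out libraries gave -0.32 to 0.30 at Max, -0.13 to 0.19 at Mxd3 and -0.019 to 0.87 at the intragenic Mxi1 region. The downstream differences stayed above 0 in each setting where they could be fitted, the one at 233 kb lying between 0.47 and 0.89. At a −log10 q of at least 5 that region had no value, since its peak in wild-type replicate 2 was below that limit. With 2 libraries per genotype and unknown depth, differences of this size did not pass the adjusted test, which does not show that the genotypes are alike.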
